A study of Mus musculus with 2 samples.

Results

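Heterotrimeric G proteins, the RGS proteins that switch them off and the adenylyl cyclases they act on were followed in the RNA of mouse dorsal root ganglion (DRG) neurons. The genes were taken by symbol, as every G protein alpha (Gna), beta (Gnb) and gamma (Gng) subunit, every numbered Rgs gene and every numbered Adcy gene in the files, which gave 64 genes of 24411 in all. They comprise 16 alpha, 5 beta and 12 gamma subunits, 21 RGS proteins and 10 adenylyl cyclases, and the 64 genes are represented by 118 of the 35034 RefSeq transcript rows. The rule reads symbols and no measured value, and it was set with earlier results of these data known.

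The data are 2 RNA-seq libraries, each from the pooled DRG neurons of 10 male C57BL/6J mice aged 6 to 8 weeks. Alum, an adjuvant made of aluminium salt, was injected into the peritoneum of all mice on days 0 and 14 (50% in a volume of 200 µl), and thoracic and lumbar ganglia were taken on day 28. In the alum + KLH group each injection also held 100 µg of keyhole limpet hemocyanin (KLH), a mollusc protein used as a foreign antigen, while the control group, whose title also carries the word naïve, had alum alone. Since both groups had alum, the comparison is of KLH given with alum against alum, and no untreated library was analysed here. Ganglia were digested with enzymes, neurons were enriched on a protein gradient, and B cells were removed with magnetic beads. Values are TPM, a transcript abundance corrected for length that sums to 1000000 in each library, so levels of different genes can be set side by side. TPM was summed over all rows of a gene, and a gene above 3 TPM was counted as detected. Each group is a single pooled library with no error between mice, and the files give no number of reads behind a value, so every number below describes these 2 pools and no test was possible.

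A heterotrimeric G protein carries the signal of a seven-helix receptor into the cell. The active receptor makes the alpha subunit exchange GDP for GTP, after which alpha and the paired beta-gamma dimer act on separate effectors. Gs alpha stimulates adenylyl cyclase, Gi alpha inhibits it, Gq alpha activates phospholipase C beta and the G12 class activates RhoGEFs, while beta-gamma opens potassium channels and inhibits voltage-gated calcium channels. RGS proteins speed up GTP hydrolysis by alpha and so end the signal. In sensory neurons, opioid receptors act through Gi/o and many inflammatory mediators that sensitise nociceptors act through Gs or Gq.

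The neuronal identity of the pools was first checked with marker lists. All 10 neuronal markers were above 3 TPM in both pools, with Snap25 at 4056.6 TPM in alum and 4278.5 TPM in alum + KLH. Glial RNA was present as well, with 6 of 8 Schwann cell markers (summed 2193.9 and 2156.7 TPM) and 6 of 6 satellite glia markers (1479.7 and 1364.5 TPM) detected. None of 7 macrophage or 8 mural cell markers was detected, and the B cell markers Cd22, Cd79a, Ms4a1, Pax5 and Cd79b lay between 0 and 0.792 TPM. Of the other non-neuronal lists, 1 of 6 endothelial, 3 of 5 fibroblast and 2 of 5 T cell markers were detected in at least 1 pool. Markers of the classes of sensory neuron were nearly all detected, and the only detected marker of any list to differ by 1.5-fold was Spp1, of the myelinated neurofilament class, with 196.1 and 352.4 TPM. Of all genes above 3 TPM in at least 1 pool, 2.56% differed by this much. Whether a different mix of cells has a part in the values below was not tested. In such mixed RNA, fewer cells of a type and less RNA per cell cannot be told apart.

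Of the 64 genes, 46 were detected in the alum pool, 45 in the alum + KLH pool and 44 in both. Of all 24411 genes, 11454 were detected in alum, 11302 in alum + KLH, 11108 in both and 11648 in at least 1 pool. The 47 genes detected in at least 1 pool included 12 of 16 alpha, 4 of 5 beta, 10 of 12 gamma, 15 of 21 RGS and 6 of 10 adenylyl cyclase genes. The families differed widely in abundance. The alpha subunits summed to 3874.7 TPM in alum and 3664.8 TPM in alum + KLH, the RGS proteins to 3418.5 and 3193.5 TPM, the beta subunits to 1219.6 and 1321.6 TPM, and the gamma subunits to 1198.4 and 1177.8 TPM. All 10 adenylyl cyclases together reached 68.0 and 63.1 TPM. In each pool 16 of the 64 genes exceeded 100 TPM, and no adenylyl cyclase was among them. Gnas and Rgs4 exceeded 1000 TPM in both pools and Gnb1 did so in alum + KLH.

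**Figure D1:**
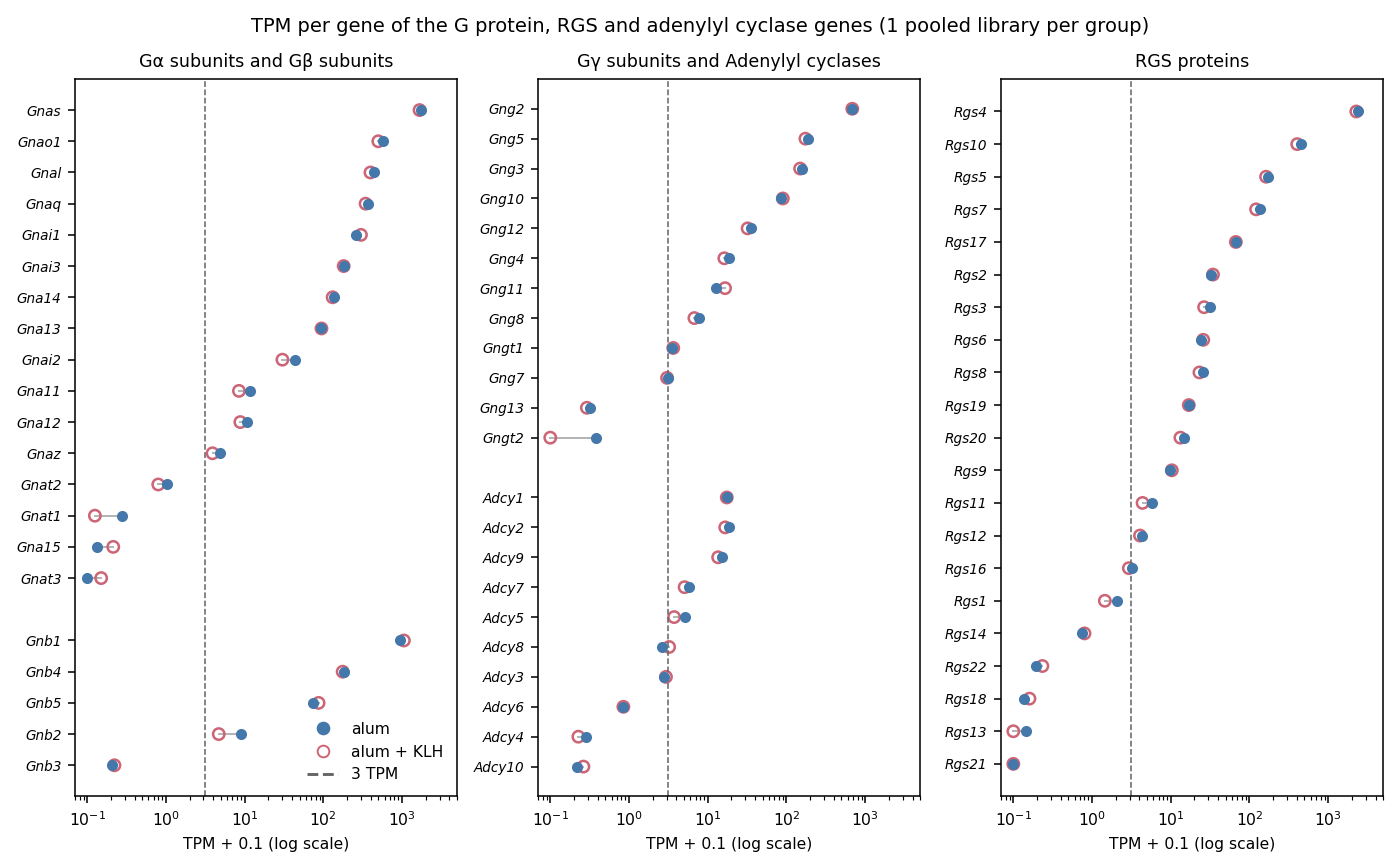
Level of each of the 64 genes on a logarithmic axis of TPM + 0.1, by family and in order of mean TPM, in the alum pool (filled) and the alum + KLH pool (open), with the dashed line at 3 TPM. The 2 points of a gene lie close together for most detected genes, while levels within a family span a wide range, in the alpha and RGS families from over 1000 TPM down to 0.

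Among the Gs class, Gnas, which encodes Gs alpha and lies at chr2:174284320-174346744 (GRCm38, the assembly also called mm10), was the highest of the alpha genes with 1748.1 TPM in alum and 1667.6 TPM in alum + KLH, a log2 ratio of alum + KLH over alum on TPM + 1 of -0.07. Gnal, which encodes the olfactory Gs-type alpha subunit Golf, stood at 439.3 and 396.3 TPM and followed Gnas and Gnao1 in both pools. As deposited, Gnas made up 45.1% of the summed alpha TPM in alum and 45.5% in alum + KLH.

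The Gnas total rested on 1 row. Of its 11 RefSeq rows, 5 were listed at 0 in both pools, and the row annotated as noncoding, NR_003258, carried 1623.2 TPM in alum and 1571.2 TPM in alum + KLH, which is 92.9% and 94.2% of the gene. The coding rows together held 125 and 96.4 TPM. Of these, NM_019690, which starts at the most upstream start of the locus, had 61.1 and 55.2 TPM, and NM_001077510, which starts at the downstream start, had 58.8 and 36.6 TPM. NM_001310083 had 5.01 and 4.61 TPM. Counting coding rows only, the log2 ratio of Gnas was -0.37, Gnas made up 5.55% and 4.60% of the alpha total, and Gnao1 was the highest alpha gene with 25.2% and 23.8%. This coding sum includes NM_019690, whose model lacks the downstream end of NM_001077510, so it cannot be read as Gs alpha message alone either.

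The rows of Gnas overlap in sequence. Of the 31-base words of the noncoding row, as modelled by GENCODE, 75.7% also occur in NM_001077510 and 93.2% in NM_001310083, and 6.8% (95 words) occur in no other Gnas row. Its modelled start is 2307 bases before that of NM_001077510. NM_019690, modelled with 5 exons, ends at chr2:174338084, whereas NM_001077510 runs to chr2:174346744. Only 6.4% of the words of the noncoding row occur in NM_019690. Of the words of NM_019690, matched on either strand, 57.6% also occur in Nespas, the antisense transcript of the locus. Matched in the same way, 71.3% of the words of the noncoding row and 75.1% of those of NM_001077510 occur in the gene model Gm20721. That symbol has no row in these data. How the authors' quantification divided reads among these rows is contained in the TPM values and was not tested, so the Gnas level is given as a locus total that cannot be read as Gs alpha message alone.

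The Gnas locus is imprinted and is known for several start sites that join different first exons to shared downstream exons. The 250 bases before 3 of these starts are shown because the rows that held the coding TPM begin there, from RefSeq on GRCm38.p6, plus strand, with each CG dinucleotide in capitals. The windows are chr2:174284070-174284319, chr2:174327518-174327767 and chr2:174329756-174330005, and they hold 14, 22 and 29 CG dinucleotides at 61.6%, 63.2% and 80.0% GC.
Gnas, start of NM_019690: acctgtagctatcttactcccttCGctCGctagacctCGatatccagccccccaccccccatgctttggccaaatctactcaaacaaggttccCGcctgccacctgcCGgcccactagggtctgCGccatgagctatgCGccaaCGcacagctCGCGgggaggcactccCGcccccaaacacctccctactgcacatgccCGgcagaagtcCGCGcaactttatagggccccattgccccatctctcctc
Gnas, start of NM_001310083: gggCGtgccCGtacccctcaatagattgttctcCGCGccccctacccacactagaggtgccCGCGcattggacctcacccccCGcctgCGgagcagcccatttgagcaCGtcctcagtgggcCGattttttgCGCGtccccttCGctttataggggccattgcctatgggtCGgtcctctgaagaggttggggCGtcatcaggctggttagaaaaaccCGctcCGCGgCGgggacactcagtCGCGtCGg
Gnas, start of NM_001077510: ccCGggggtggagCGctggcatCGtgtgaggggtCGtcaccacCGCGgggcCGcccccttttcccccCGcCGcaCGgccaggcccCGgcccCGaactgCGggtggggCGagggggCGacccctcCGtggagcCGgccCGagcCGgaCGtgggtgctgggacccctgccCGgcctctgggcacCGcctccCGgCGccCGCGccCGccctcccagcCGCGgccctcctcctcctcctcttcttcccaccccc
The window of the upstream start has the fewest CG dinucleotides and that of the downstream start the most.

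In the Gi/o class, Gnao1, which encodes the Go alpha subunit abundant in neurons, was second among the alpha genes with 568.3 TPM in alum and 498.6 TPM in alum + KLH (log2 ratio -0.19). The 3 genes for the inhibitory Gi alpha subunits were ordered alike in both pools. Gnai1 had 259.3 and 300.3 TPM and was the only detected alpha gene with a higher value in alum + KLH (log2 ratio 0.21). Gnai3 had 183.4 and 181.0 TPM. Gnai2, the form that dominates in blood cells, had 43.3 and 30.1 TPM, the lowest ratio of the alpha family (-0.51). Gnaz, which encodes a Gi-class subunit insensitive to pertussis toxin, was near the detection threshold with 4.78 and 3.81 TPM.

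In the Gq class, which drives phospholipase C beta, Gnaq stood at 372.5 TPM in alum and 343.7 TPM in alum + KLH, and Gna14 at 137.8 and 131.0 TPM. Gna11 was far lower, with 11.6 and 8.36 TPM, and Gna15, the form of haematopoietic cells, was at 0.0332 and 0.114 TPM. The sum of the class was 522 and 483 TPM, of which Gnaq and Gna14 supplied almost everything. Among the class that activates RhoGEFs, Gna13 had 94.6 and 94.5 TPM and Gna12 10.7 and 8.71 TPM, so the values of Gna13 were nearly equal in the 2 pools.

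The transducins, alpha subunits of photoreceptors and taste cells, were not detected. Gnat2 of cones was at 0.923 and 0.699 TPM, Gnat1 of rods at 0.175 and 0.0251 TPM, and Gnat3, the taste cell subunit gustducin, was listed at 0 in alum and at 0.0503 TPM in alum + KLH.

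Among the beta subunits, Gnb1 at chr4:155491300-155559269 dominated with 954.0 TPM in alum and 1054.3 TPM in alum + KLH (log2 ratio 0.14), which is 78.2% and 79.8% of the family. Gnb4 followed at 181.9 and 175.7 TPM (-0.05). Gnb5, the divergent beta subunit that pairs with RGS proteins of the R7 class, had 74.7 and 86.9 TPM and the highest ratio of the family (0.22). Gnb2 at chr5:137528127-137533449 had 8.86 TPM in alum and 4.59 TPM in alum + KLH. Gnb3, the beta subunit of cones, was not detected, with 0.106 and 0.122 TPM.

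Among the gamma subunits, small proteins that anchor the beta-gamma dimer to the membrane through a lipid, Gng2 led with 686.8 TPM in alum and 686.4 TPM in alum + KLH (log2 ratio -0.00079), more than all other gamma genes together. Gng5 had 190.2 and 174.2 TPM (-0.13), Gng3, a neuronal form, 155.9 and 149.2 TPM, and Gng10 84.3 and 89.9 TPM. A middle group held Gng12 with 35.4 and 32.1 TPM, Gng4 with 18.4 and 16.2 TPM and the lowest ratio of the detected gamma genes (-0.18), and Gng11 with 12.8 and 16.5 TPM and the highest (0.35). Gng8, known from olfactory and vomeronasal neurons, had 7.64 and 6.68 TPM. Gngt1, the rod transducin gamma subunit, was detected at 3.38 and 3.55 TPM although the rod alpha subunit Gnat1 was not. Gng7, the partner of Golf in the striatum, was at the threshold with 3.003 and 2.944 TPM, Gng13 of taste and olfactory cells had 0.217 and 0.192 TPM, and Gngt2 of cones had 0.278 TPM in alum and was listed at 0 in alum + KLH.

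Several gamma values rest on sequence shared with other genes. Of the 31-base words of Gng10, 79.3% occur in an overlapping gene model, and the share was 46.0% for Gng5, 24.2% for Gng2 and 22.8% for Gng3, whose words are shared with Bscl2. The models most shared by Gng10, Gng5 and Gng2 have no row of their own in these data. Outside the gamma family, the share was 34.5% for the main Rgs3 row and 29.4% for the main Adcy3 row. Words were matched on either strand. The libraries were strand-specific, but the study's methods do not say whether the quantification used the strand. How much of this overlap matters for reads is therefore not known. Such values may hold reads of the other gene, and the part of such reads in the levels was not tested.

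**Figure D2:**
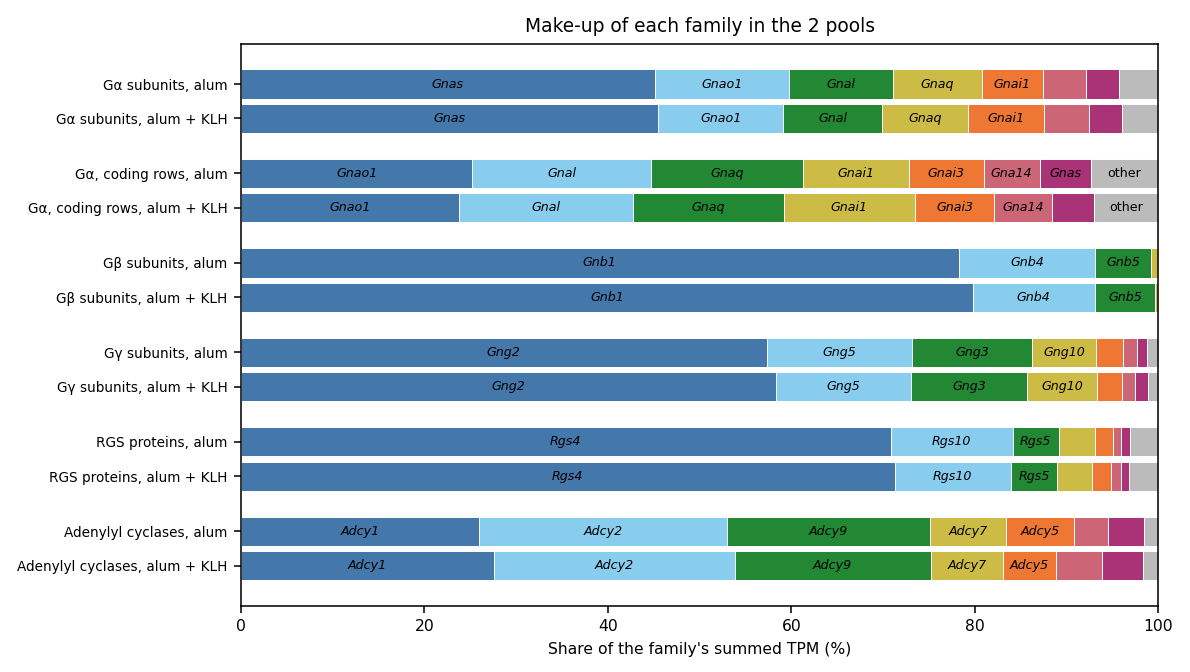
Share of each family's summed TPM (horizontal axis, in percent) held by its 7 highest genes and the rest, in the alum and the alum + KLH pool, with the alpha family also shown with coding Gnas rows only. Gnb1, Gng2 and Rgs4 each hold over 50% of their family in both pools, whereas Adcy1, Adcy2 and Adcy9 share most of the cyclase total, and Gnas leads the alpha family with its noncoding row and not without it.

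Among the RGS proteins, Rgs4 at chr1:169741477-169747642, of the small R4 class that acts on Gi/o and Gq, was the highest of all 64 genes with 2421.2 TPM in alum and 2275.7 TPM in alum + KLH (log2 ratio -0.09). Only 0.0983% of all genes were higher in alum and 0.102% in alum + KLH. It supplied 70.8% and 71.3% of the family's TPM. Other R4 genes ran from Rgs5 with 172.2 and 162.4 TPM through Rgs2, an early-response gene that favours Gq, with 32.1 and 34.3 TPM, Rgs3 with 31.4 and 26.4 TPM and Rgs8 with 25.4 and 23.0 TPM to Rgs16 with 3.14 and 2.84 TPM. Rgs5 also marks pericytes in many tissues. The highest of the 8 mural cell markers, Tagln, had 2.004 and 1.772 TPM, and all 8 summed to 7.17 and 6.31 TPM. The cell source of the Rgs5 RNA was not tested.

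In the R12 class, Rgs10 had 454.2 and 404.1 TPM (log2 ratio -0.17), Rgs12 had 4.17 and 3.97 TPM, and Rgs14 was undetected at 0.654 and 0.702 TPM. The R7 class, whose proteins need the beta subunit Gnb5 for stability, was detected in full. Rgs7 led it with 134.6 TPM in alum and 121.3 TPM in alum + KLH, followed by Rgs6 with 23.8 and 25.8 TPM, the highest ratio of the RGS family (0.11), Rgs9 with 9.59 and 10.2 TPM, and Rgs11 with 5.76 and 4.28 TPM, the lowest (-0.36). The R7 genes summed to 174 and 162 TPM beside 74.7 and 86.9 TPM of Gnb5, and the gene for their membrane anchor, Rgs7bp, reached 608.8 and 616.1 TPM. Gpr158, a receptor that binds the same complex, stood at 196.3 and 207.2 TPM.

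In the RZ class, which prefers Gz and Gi alpha subunits, Rgs17 had 66.6 and 67.0 TPM, Rgs19 16.8 and 16.9 TPM and Rgs20 14.8 and 13.2 TPM. Rgs1, Rgs13, Rgs18 and Rgs21, known from blood or taste cells, were not detected, which does not cover every RGS gene that immune cells can express. Rgs1 of activated lymphocytes had 1.98 and 1.35 TPM, Rgs13 of germinal centre B cells 0.0445 and 0 TPM, Rgs18 of platelets 0.0351 and 0.0604 TPM, and Rgs21 of taste cells was listed at 0 in both pools. Rgs22 was at 0.0938 and 0.134 TPM.

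The adenylyl cyclases, which make cAMP from ATP, were low as a family and none passed 20 TPM. Adcy2, a form stimulated by beta-gamma, had 18.4 TPM in alum and 16.6 TPM in alum + KLH (log2 ratio -0.14), and Adcy1, a form stimulated by calcium and calmodulin, 17.7 and 17.4 TPM (-0.02). These levels were close, and the order of the pair turned between the pools. Adcy9, a form little affected by forskolin, had 15.1 and 13.5 TPM. Adcy7, whose response to Gs is raised by beta-gamma, stood at 5.65 and 4.99 TPM. Adcy5, a calcium-inhibited form, had 5.03 and 3.64 TPM and the lowest ratio of the family (-0.38), and Adcy8, another calcium-stimulated form, 2.50 and 3.13 TPM and the highest (0.24). Adcy3, the cyclase of olfactory neurons and primary cilia, stayed under the threshold with 2.68 and 2.85 TPM, and the other 3 undetected cyclases, Adcy4, Adcy6 and the soluble Adcy10, lay between 0.119 and 0.751 TPM.

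The pools were then compared across the 47 detected genes. A single gene, Gnb2, differed by at least 1.5-fold on the TPM + 1 scale, which is 2.13% of the 47 beside 2.56% of the 11648 genes above 3 TPM in at least 1 pool. Gnb2 was lower in alum + KLH, at 4.59 TPM against 8.86 TPM, a log2 ratio of -0.82. Genes lower by this much made up 1.55% of all genes, and 3.76% of the 3349 genes with a mean under 10 TPM, where Gnb2 lies. None of the 47 was higher by 1.5-fold, beside 1.00% of all genes, and none differed by 2-fold, beside 1.64% of all genes, of which 0.695% were higher and 0.944% lower. The share of genes called was thus near that of all genes.

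Most values of the 47 genes were close. On the TPM + 1 scale 23 of them lay within 10% of each other, 39 within 20% and 44 within 30%. The same counts were not made over all genes, so this closeness cannot be read as particular to the 47. The ratio was below 0 for 35 genes and above 0 for 12, so 74.5% were lower in alum + KLH, beside 56.4% of all genes. Taken relative to genes of the same GC content, as described below, the split was 30 below and 17 above, which is 63.8% lower beside 5750 of 11504 genes, a share that the centring sets. The median log2 ratio of the 47 genes was -0.09, beside -0.02 for all genes, and the family medians were -0.13 for alpha, 0.05 for beta, -0.04 for gamma, -0.09 for RGS and -0.15 for adenylyl cyclase genes.

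**Figure D3:**
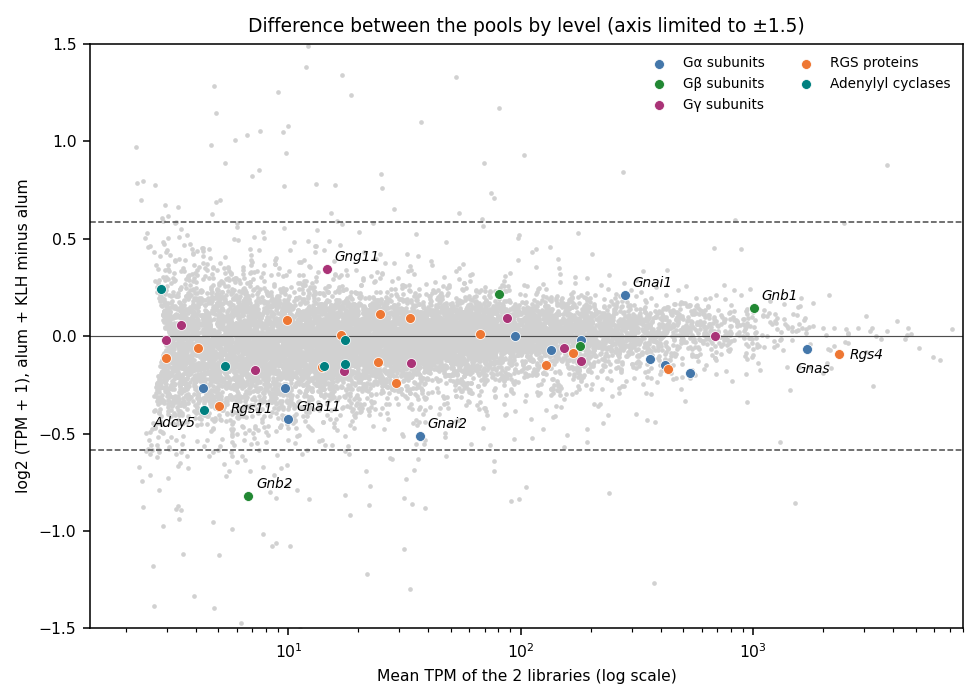
Log2 ratio of TPM + 1, alum + KLH over alum (vertical axis), against mean TPM of the 2 pools (logarithmic axis) for all genes above 3 TPM in at least 1 pool (grey) and the 47 detected G protein, RGS and cyclase genes (coloured by family). Dashed lines mark 1.5-fold, grey points beyond ±1.5 are not drawn, and of the coloured points Gnb2 alone lies outside them, at -0.82.

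At a fold of 1.25, a threshold added after the values were seen, 6 of the 47 genes (12.8%) differed, beside 7.68% of all genes. Lower in alum + KLH were Gnb2, Gnai2, Gna11, Adcy5 and Rgs11 (10.6%), beside 5.39% of all genes that were lower by this fold. Higher was Gng11 (2.13%), beside 2.29%. Of the 5 lower genes, 4 had a mean under 10 TPM, a class in which 11.7% of genes were lower by 1.25-fold. Gnai2, with 43.3 and 30.1 TPM, was the exception, and in its class of 30 to 100 TPM 2.05% of genes were lower by this fold.

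The 5 lower genes shared a high GC content of the transcript, a property the choice of genes did not use. Gnb2 had 59.9% GC, Adcy5 59.5%, Gna11 57.2%, Gnai2 56.7% and Rgs11 56.6%, all in the highest decile of 11504 genes with a GC value. Over all genes, the median log2 ratio went from 0.07 in the lowest GC decile to -0.19 in the highest, where 22.1% of genes were lower by 1.25-fold. The 10 detected family genes in that decile had a median of -0.31. Across genes, which are not independent replicates and share both libraries, the Spearman correlation of GC content with the ratio was -0.463 for all genes and -0.546 for the 47.

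Measured from the median of its GC decile, the ratio of Gnb2 was -0.63 and that of Gnai2 -0.32, while Adcy5 had -0.19 and Rgs11 -0.17. Gng11, with 52.4% GC, had 0.41, and Rgs19, with 59.2% GC and nearly equal TPM in the pools, had 0.20. The GC content moved with the difference between the pools, and its part in the values of single genes was not tested.

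**Figure D4:**
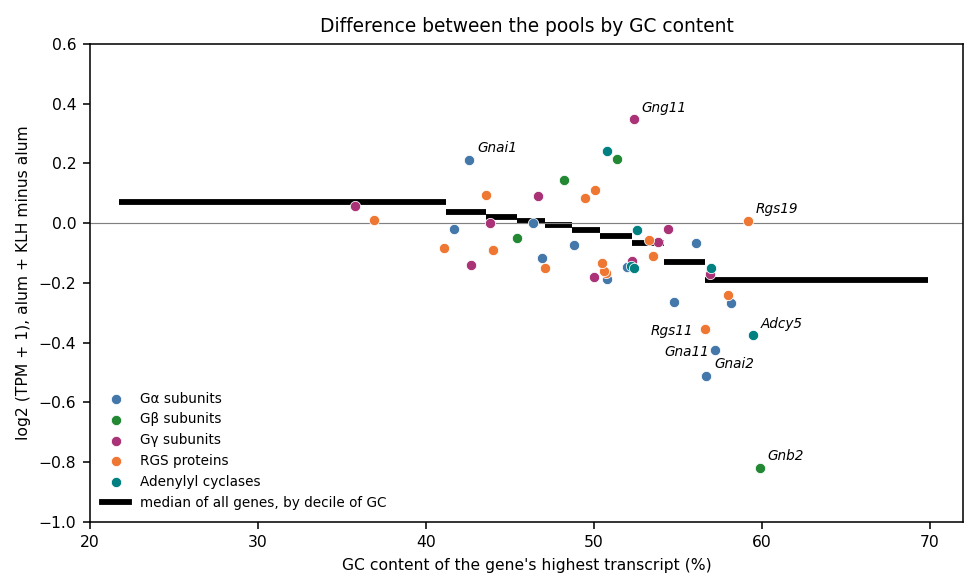
Log2 ratio of TPM + 1, alum + KLH over alum (vertical axis), against the GC content in percent of the highest transcript of each of the 47 detected genes (points, by family), with black bars for the median of all genes in each decile of GC content. The bars descend from 0.07 to -0.19, and Gnb2, Gnai2, Gna11, Adcy5 and Rgs11 lie at the GC-rich end below the last bar.

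For several genes single rows differed more between the pools than the gene sum. Of 59 rows of these genes above 3 TPM, 6 (10.2%) differed by at least 1.5-fold between the pools, beside 8.51% of all 14215 such rows. Of the Gng12 rows, NM_001177557 had 28.9 TPM in alum and 20.4 TPM in alum + KLH, NM_001177558 had 4.44 and 0.0641 TPM, NM_025278 had 1.91 and 6.64 TPM, and NM_001177556 had 0.135 and 4.32 TPM, while the gene sum was 35.4 and 32.1 TPM. The minor Gng2 row NM_001038637 had 15.2 and 2.59 TPM beside a main row at 669.1 and 682.2 TPM. For Gnb1, the row NM_001160017 held 46.4% of the gene in alum and 55.0% in alum + KLH, and NM_001160016 held 38.3% and 31.6%. Rows of 1 gene share sequence, and whether these shifts reflect transcripts or the division of reads was not tested.

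Many of the genes lie next to a relative, and 12 neighbouring pairs had gene bodies no more than 250 kb apart. In several pairs 1 gene was detected and the other was not. The cone transducin gene Gnat2 (0.923 and 0.699 TPM) lies 5.8 kb from Gnai3 (183.4 and 181.0 TPM), Gna15 (0.0332 and 0.114 TPM) lies 4.3 kb from Gna11 (11.6 and 8.36 TPM), and Gnat1 (0.175 and 0.0251 TPM) lies 39.0 kb from Gnai2 (43.3 and 30.1 TPM). Gnat3 and Gnai1 are 245.5 kb apart on chromosome 5. In other pairs both genes were detected, as for Gnaq and Gna14, 47.1 kb apart, Rgs4 and Rgs5, 45.7 kb apart, and Gng11 and Gngt1, 6.5 kb apart. Among pairs a few kb apart, only Gng11 and Gngt1 had both genes detected, and Gngt1 was near the threshold with 3.38 and 3.55 TPM. Gnat2 and Gnai3, and Gna15 and Gna11, had 1 gene detected.

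**Figure D5:**
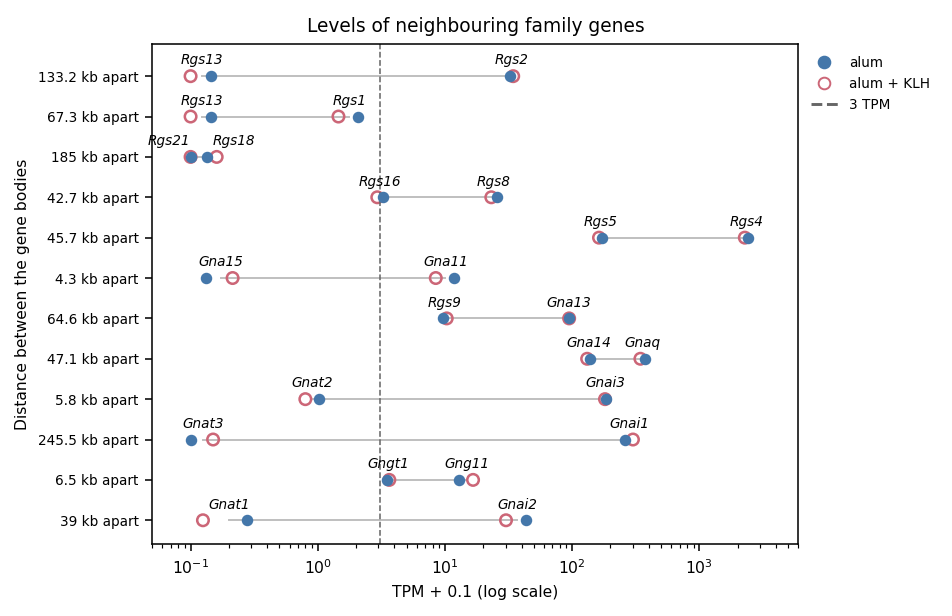
Levels of the 12 pairs of neighbouring family genes on a logarithmic axis of TPM + 0.1, in the alum pool (filled) and the alum + KLH pool (open), with the distance between the gene bodies of each pair at the left and the dashed line at 3 TPM. Gnat2 and Gnai3, 5.8 kb apart, lie on opposite sides of the line, whereas Gnaq and Gna14, 47.1 kb apart, both lie far above it.

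The promoters of 2 pairs are shown because they set genes of very different and of more similar level beside each other. Each is the 250 bases before the annotated start from RefSeq on GRCm38.p6, read 5′ to 3′ on the strand of the gene, with CG dinucleotides in capitals. Gnai1 is on the minus strand with its window at chr5:18360414-18360663, and Gnat3 (chr5:17962320-17962569), Gnaq (chr19:16132434-16132683) and Gna14 (chr19:16435417-16435666) are on the plus strand.
Gnai1: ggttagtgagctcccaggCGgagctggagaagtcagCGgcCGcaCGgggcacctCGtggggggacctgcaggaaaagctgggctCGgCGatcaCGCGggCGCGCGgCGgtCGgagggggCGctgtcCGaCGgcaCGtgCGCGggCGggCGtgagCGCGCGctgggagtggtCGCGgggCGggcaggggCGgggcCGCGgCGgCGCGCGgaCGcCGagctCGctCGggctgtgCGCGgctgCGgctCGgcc
Gnat3: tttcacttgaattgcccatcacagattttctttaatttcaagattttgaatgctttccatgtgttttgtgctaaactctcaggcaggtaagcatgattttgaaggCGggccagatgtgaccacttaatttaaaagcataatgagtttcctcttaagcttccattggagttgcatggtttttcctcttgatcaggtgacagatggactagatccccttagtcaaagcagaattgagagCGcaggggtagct
Gnaq: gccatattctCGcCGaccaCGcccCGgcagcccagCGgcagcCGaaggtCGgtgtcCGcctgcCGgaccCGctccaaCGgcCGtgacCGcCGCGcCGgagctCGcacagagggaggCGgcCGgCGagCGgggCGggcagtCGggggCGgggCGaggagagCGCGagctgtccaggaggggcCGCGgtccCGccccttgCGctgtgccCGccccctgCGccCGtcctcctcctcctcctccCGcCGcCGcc
Gna14: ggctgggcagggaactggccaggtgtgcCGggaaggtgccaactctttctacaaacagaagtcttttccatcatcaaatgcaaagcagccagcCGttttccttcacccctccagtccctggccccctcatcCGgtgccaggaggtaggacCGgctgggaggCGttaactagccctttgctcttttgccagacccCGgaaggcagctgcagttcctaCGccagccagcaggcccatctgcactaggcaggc
The Gnai1 window holds 43 CG dinucleotides and that of Gnat3 holds 2. The Gnaq window holds 37 and that of Gna14 holds 7, although Gna14 was detected at 137.8 and 131.0 TPM.

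Promoter windows were found for 48 of the 64 genes. Counting the highest CG count of each gene, the median was 20.0 for the 39 detected genes and 5.0 for the 9 undetected ones, beside 17.0 and 4.0 over 17224 genes with a window. As a description across genes, the Spearman correlation of the CG count with mean TPM was 0.389 over these 48 genes and 0.604 over all. The full cAMP response element TGACGTCA, searched on both strands, was in none of the 64 windows of these genes and in 1.55% of all 32851 windows. At that share few or no such windows would be expected among 64. The shorter core TGACG, which the full element contains, was in 13 windows (20.3%), beside 17.8% of all. These included windows of Gnb1, Rgs2 and Rgs4 and 3 windows of Gnas, of which some overlap. A match of letters is a description and not a binding site.

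The partners and effectors of these proteins were read from lists of the same pathway. No detected gene of the 7 lists, which held 3 to 13 detected genes each, differed by 1.5-fold between the pools, beside 2.56% of all genes. At that share few or no such genes would be expected in lists of this size. Protein kinase A is the main target of the cAMP that cyclases make, which binds its regulatory subunits and frees the catalytic ones. All 6 subunit genes were detected and summed to 3201.7 TPM in alum and 3306.6 TPM in alum + KLH, beside 68.0 and 63.1 TPM for the cyclases. The regulatory Prkar1a was the highest with 1478.2 and 1641.8 TPM, followed by Prkar2b with 740.5 and 714.4 TPM and the catalytic Prkacb with 441.6 and 456.9 TPM. Their median log2 ratio was -0.07.

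The enzymes that degrade cAMP were also broadly expressed, with 13 of 16 phosphodiesterase genes detected, led by Pde4b with 103.4 and 104.4 TPM and Pde1c with 95.6 and 90.8 TPM, and a median ratio of 0.01. Of 8 further cAMP effectors 5 were detected, among them Rapgef4, an exchange factor for Rap that cAMP activates directly, with 177.4 and 177.1 TPM, and the transcription factor Creb1 with 24.3 and 28.6 TPM. The median ratio of these 5 was 0.16. It became -0.05 when the 3 undetected genes were included.

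Of the receptor kinases and arrestins, which desensitise G protein-coupled receptors, 7 of 10 were detected, with Grk4 at 89.3 and 96.3 TPM, Arrb1 at 76.9 and 71.4 TPM and a median ratio of -0.11. Of the chaperones and cofactors of G proteins 8 of 15 were detected, with Pdcl, which helps to assemble beta-gamma, at 108.7 and 116.1 TPM, Ric8b, a chaperone of Gs and Golf, at 43.6 and 44.7 TPM and a median of 0.03. The phospholipase C beta genes Plcb1, Plcb3 and Plcb4, targets of Gq, were detected at 33.8, 41.1 and 50.6 TPM in alum and 36.0, 33.7 and 50.2 TPM in alum + KLH, with a median of -0.01. Plcb2, the form of blood and taste cells, was at 0.0245 and 0.0525 TPM. Of the RhoGEFs downstream of Gna12 and Gna13, 3 of 4 were detected, led by Arhgef12 with 88.6 and 90.2 TPM, and their median was -0.12.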

How the data were processed

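RNA-seq values came from 2 libraries, each of DRG neurons pooled from 10 mice. The authors prepared strand-specific mRNA libraries, trimmed the paired reads with cutadapt and quantified them with kallisto on mm10, and deposited TPM per RefSeq transcript. No counts are in the files used here, so the number of reads behind a value is not known from them and no interval was computed. The study's methods give the library depth only as a minimum. TPM is relative within a library, and kallisto's division of reads among similar transcripts is contained in it.

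From the deposited TPM, gene sums were formed, a threshold of 3 TPM was applied and log2 ratios of TPM + 1 were taken, with 1.5-fold as the called difference. With 1 library per group no test was made. Every detected gene is named. Undetected genes are named where they belong to other tissues or where few remained, and log2 ratios are given for the 2 highest genes, the extremes of each family and genes that alternatives singled out. A gene above 3 TPM counts as detected, the limit that the study's methods also use. The genes and lists were chosen with earlier results of these data known. Roles were assigned from general knowledge. GENCODE models matched through RefSeq identifiers gave GC content and shared 31-base words, and RefSeq tables gave gene positions and promoters. No protein sequences were used here. Several rows share 1 model, so row properties are approximate. Alternatives were pseudocounts of 0.1 and 0.5 TPM, the highest row per gene, rescaling by the median ratio, TPM relative to Hprt, other thresholds (1 and 10 TPM, 2-fold) and no filter on low values. The 1.25-fold threshold, coding rows and GC centring were added after the data were seen. Calculations used Python 3.11.15, numpy 2.4.6, pandas 2.3.3 and matplotlib 3.10.9. The ratio and call steps were tested on simulated data, with changes larger than 1.5-fold, less spread than in these data, and genes above 10 TPM. That test did not cover calls at lower levels, such as that of Gnb2.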

Additional observations from a re-analysis of the deposited data

How the results depend on the processing

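No paired analysis was possible because each group is 1 pooled library, and for the same reason no library could be left out. The count of genes lower in alum + KLH by 1.5-fold was 1. It became 2 relative to Hprt and 0 among genes above 10 TPM. The share over all genes was not computed under these settings, so these counts cannot be read as particular to the family genes. The count was 0 at 2-fold and 5 at 1.25-fold, where the count of higher genes became 1 in place of 0. Shares of all genes at 2-fold and 1.25-fold are given above. Gnb2 stayed lower under each alternative that kept it, with log2 ratios from -0.94 (pseudocount 0.1 TPM) to -0.63 (GC centring). The median of the cAMP effectors turned to -0.054 without a filter, and that of the adenylyl cyclases moved to -0.023 with GC centring. Scaling to Hprt (989 and 1049 TPM) shifted the median of all genes to -0.10 and that of the beta subunits from 0.05 to -0.04. With the highest row of a gene, Gnb1 had 0.39 and Gng12 -0.49. Gnas had -0.37 with coding rows only and Gnai2 -0.32 with GC centring. The causes were not tested, beyond what each alternative changes by construction. Of 328 gene values, 324 moved by less than the SD of the ratio over genes of similar level, and 53 of 54 family medians and 55 of 56 list medians moved by less than 0.1. The SD was 0.611 under 10 TPM, above the called log2 difference of 0.585, and 0.335, 0.174 and 0.160 in the classes of rising level. These limits are wide beside many of the values, and a change of sign within them, as for the beta subunits, was not counted. The counts therefore say little about how firm a single ratio or median is. The number of genes detected in both pools was 44, and 49 at 1 TPM, 33 at 10 TPM and 43 by highest row. The files give no counts, so no counting error could be set on values near 3 TPM.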
